A study of Homo sapiens with 12 samples.

Results

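The 44 genes described here encode the proteasome, the cell's main machine for degrading ubiquitin-tagged proteins. They were listed by name as the constitutive subunits, activators and assembly factors: PSMA1 to PSMA7, PSMB1 to PSMB7, PSMC1 to PSMC6, PSMD1 to PSMD14, PSME1 to PSME4, PSMF1, PSMG1 to PSMG4 and POMP. All 44 were among the 60617 genes of the deposited files and all 44 passed the filter on low counts, as did 15692 genes in all. The RNA came from HCT 116p53-/- cells, human colorectal cancer cells without functional p53, and from a derived line that the labels call RPL3 KO. The study's methods describe the derived line as stably silenced for uL3, the ribosomal protein that RPL3 encodes. Cells of both lines received vehicle or 5 nM actinomycin D (Act D), which at low doses blocks the synthesis of ribosomal RNA, for 24 h, and the study asked how the response to this nucleolar stress depends on uL3. Each of the 4 groups had 3 libraries, which the labels call biological replicates. Both lines carry the p53 deletion, and with 1 derived line its label and any other difference between the lines cannot be told apart.

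The proteasome consists of a barrel-shaped core particle, in which rings of beta subunits with the proteolytic sites lie between rings of alpha subunits, and of a regulatory particle, whose ATPases unfold the substrate and whose other subunits bind ubiquitin and remove it. Dedicated chaperones assemble both particles, and alternative activators such as those of the PSME family can take the place of the regulatory particle. When proteasome capacity falls short, the transcription factor NFE2L1 is known to raise the expression of proteasome genes together, after it has been deglycosylated by NGLY1 and cleaved by the protease DDI2.

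Total expected counts were between 10087925 and 21138886 per library, and the 44 genes had between 165 and 13821 counts each in every library. Levels in CPM are counts relative to the library's total, scaled with edgeR's TMM factors, and changes are log2 fold changes with their standard error (SE) from edgeR's quasi-likelihood test, called at a Benjamini-Hochberg adjusted p under 0.05 over the 15692 genes. RPL3 was not lower in the libraries labelled RPL3 KO: its level was between 1111.5 and 1151 CPM in the 6 libraries of HCT 116p53-/- cells and between 1132 and 1337 CPM in the other 6, and the difference was not called with vehicle (edgeR adjusted p = 0.155) or with Act D (edgeR adjusted p = 0.187). Of the colon epithelial markers, CDH1 (64.3 to 76.6 against at most 0.701 CPM) and CDX2 (14.2 to 23.5 against at most 0.343 CPM) were near 0 in the libraries labelled RPL3 KO, KRT8 and KRT18 were abundant in both lines, and the mesenchymal marker VIM was at 19.7 to 45.2 CPM against 2184 to 2491 CPM. Of 20 markers of epithelial, mesenchymal and blood cells 12 were tested. Of those, 11, all but CDH2, differed between the lines with vehicle, where 71.3% of all genes tested did. Directions are given here only for CDH1, CDX2 and VIM. The part of the markers in the differences between lines below was not tested. Replicate 1 of the Act D-treated RPL3 KO-labelled libraries stood farthest from its group. In these bulk samples a lower share of a cell type and less RNA per cell cannot be told apart.

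All the proteasome genes were well expressed. Ranked per length by the deposited length-normalised TPM, their means over the 12 libraries lay between the 69.9th percentile of the genes tested (PSMD5) and the 98.1st (PSMB1). In vehicle-treated HCT 116p53-/- cells the order of TPM was led by core particle genes: the beta subunits PSMB1 at 192 ± 20.7 TPM (SD, n = 3), PSMB4 at 174 ± 15.7 and PSMB3 at 174 ± 14.7, followed by the alpha subunits PSMA7 at 170.1 ± 19.3 and PSMA4 at 153 ± 32.2. Each of the first 6 genes, PSMB5 being the 6th, was closer to its neighbours than the larger of the 2 SDs. The genes of the catalytic subunits stood at 147 ± 16.5 (PSMB5), 125 ± 14.3 (PSMB6) and 112 ± 18.2 TPM (PSMB7). The lowest levels belonged to assembly and activator genes, namely PSMG4 at 11.3 ± 0.573, PSMD5 at 15.6 ± 2.87, PSME4 at 18.9 ± 0.951 and PSMD10 at 19.2 ± 2.98 TPM. The highest member was 2.85 times the median member in this group and 2.76 times with Act D, against 4.22 and 4.75 times in the libraries labelled RPL3 KO with vehicle and Act D.

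The order differed in the libraries labelled RPL3 KO. PSMD2, the large base subunit that docks ubiquitin-binding proteins, stood 7th in HCT 116p53-/- cells with vehicle and 2nd in the RPL3 KO-labelled libraries, at 141 ± 4.78 and 183 ± 33.5 TPM. PSMC5, an ATPase of the regulatory particle, moved the other way, from place 23 to place 34, and PSMD5, a chaperone of the ATPase ring, took the last place in both treatments at 6.34 ± 2.45 and 4.48 ± 0.376 TPM. No difference between lines was called from TPM. The 3 short RNAs RN7SL1, RN7SL2 and RN7SK took 31.2 to 35.9% of all TPM in HCT 116p53-/- cells and 35.9 to 41.8% in the libraries labelled RPL3 KO. The median log2 TPM ratio between lines was -0.42 over 10358 genes with vehicle, and the part of these RNAs in it was not tested. Summed over the 44 genes, the level was 3538 ± 368, 3787 ± 212, 2742 ± 246 and 2652 ± 63.9 TPM (SD, n = 3) in HCT 116p53-/- cells with vehicle and Act D and in the libraries labelled RPL3 KO with vehicle and Act D. On the TMM scale the same sums were 5405 ± 236, 6056 ± 65.1, 5861 ± 296 and 5899 ± 316 CPM (SD, n = 3). On that scale the sum of the libraries labelled RPL3 KO was higher than that of HCT 116p53-/- cells with vehicle and lower with Act D, so that the direction with vehicle depended on the scale.

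**Figure D1:**
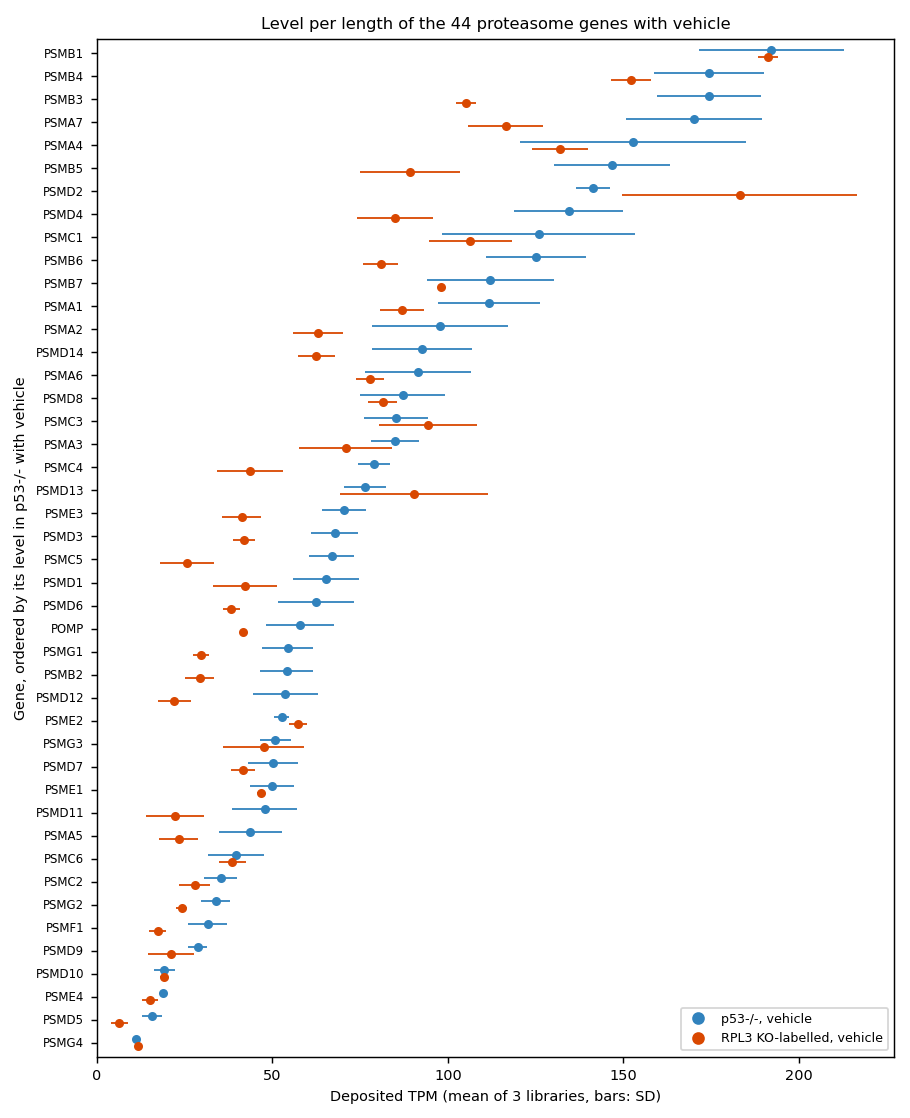
Deposited TPM (x axis, linear) of the 44 proteasome genes (y axis, ordered by their level in vehicle-treated HCT 116p53-/- cells) with vehicle in both lines. Points are means of 3 libraries and bars are SD. PSMB1 leads in both lines, and PSMD2 lies to the right in the libraries labelled RPL3 KO while most other genes lie to the left, as the whole TPM scale did.

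The first comparison asked how the lines differed with vehicle. In the libraries labelled RPL3 KO, 17 of the 44 proteasome genes were higher and 11 lower, where 35.1% of the genes tested were higher, 36.2% lower and 71.3% different in either direction. The share of members called was 63.6% (28 of 44). Of the 7924 genes whose mean CPM was at least that of the lowest member, 76.7% were called. The median log2 difference was 0.07 over the members and -0.02 over all genes. The median over the members depended on single libraries: it was 0.012 without replicate 2 of the HCT 116p53-/- libraries and 0.12 without replicate 1 of them, and 0.0055 without replicate 2 of the libraries labelled RPL3 KO and 0.14 without replicate 1 of them. The differences were small: the median of their absolute log2 values was 0.27, against 0.74 over all genes and 0.57 over the 7924 genes whose mean CPM was at least that of the lowest member, and 1 member, PSMD5, differed by more than 1 log2 unit, against 38.8% of all genes. Genes were called in both directions in each structural group apart from the alpha ring, with 2 of 7 alpha ring genes higher and 0 lower, 3 of 7 beta ring genes higher and 3 lower, 3 of 6 ATPases higher and 2 lower, 4 of 11 other regulatory particle genes higher and 2 lower, 2 of 5 activator or inhibitor genes higher and 2 lower, and 3 of 8 assembly genes higher and 2 lower.

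With Act D in both lines, the libraries labelled RPL3 KO had 10 members higher and 19 lower, where 35.1% of the genes tested were higher, 35.3% lower and 70.4% different in either direction. Of the 7924 genes with a mean CPM of at least that of the lowest member, 76.6% differed, beside 65.9% of the members. The median over the members was -0.01 and that over all genes -0.02, and with single libraries left out the former lay between -0.10, without replicate 3 of the RPL3 KO-labelled libraries, and 0.015, without replicate 1 of them. Of the 19 lower genes, 7 were among the 11 non-ATPase genes of the regulatory particle, namely PSMD1, PSMD3, PSMD4, PSMD6, PSMD11, PSMD12 and PSMD14, and 3 were higher, PSMD2, PSMD7 and PSMD13. The comparisons with vehicle and with Act D have no library in common. The 10 genes higher with Act D were all higher with vehicle too (10 of 17, or 58.8%, of the vehicle calls): PSMA4, PSMB1, PSMC3, PSMD2, PSMD7, PSMD13, PSME1, PSME2, PSMD10 and PSMG4. Another 10 genes were lower in both (90.9% of the vehicle calls and 52.6% of the Act D calls): PSMB2, PSMB3, PSMB5, PSMC4, PSMC5, PSMD11, PSMD12, PSME3, PSMF1 and PSMD5. Over all tested genes, 86.1% of the higher calls with vehicle and 84.0% of the lower ones were shared in the same way. No member was called in opposite directions, as were 101 of all genes, and PSMA1, PSMA2, PSMA6, PSMC2, PSMG2, POMP and PSMD9 were called in neither comparison.

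**Figure D2:**
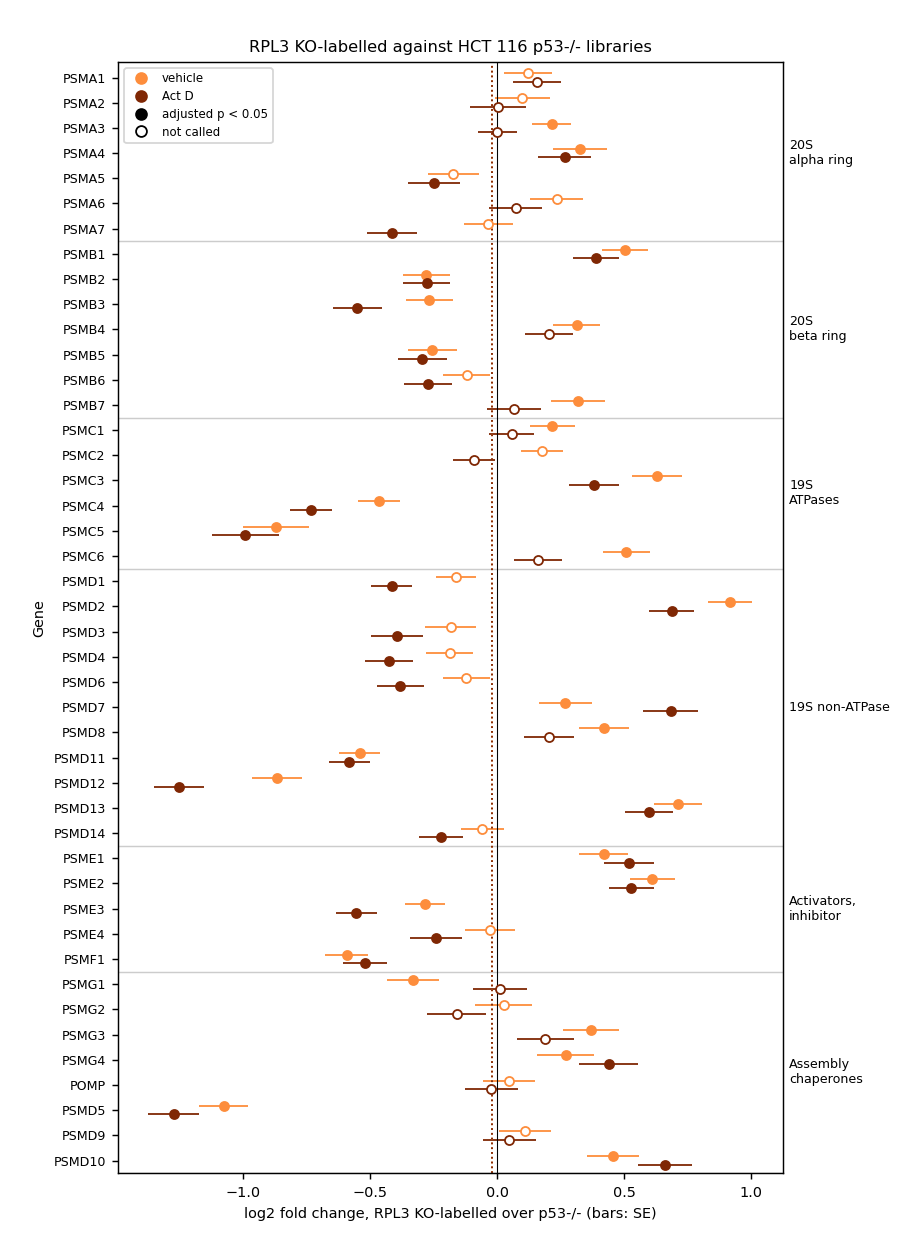
Log2 fold change of each proteasome gene, libraries labelled RPL3 KO over HCT 116p53-/- libraries (x axis), with vehicle (light) and with Act D (dark), by role (y axis). Bars are SE, filled points passed an adjusted p under 0.05, and dotted lines mark the median of all genes. PSMD2 and PSMD13 lie far to the right, and PSMD5, PSMC5 and PSMD12 far to the left, in both treatments.

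Among the genes higher in the libraries labelled RPL3 KO, PSMD2 (chr3:184299198-184309050, hg38, plus strand) differed most. It was at 345, 371 and 384 CPM in the vehicle-treated and 459, 452 and 464 CPM in the Act D-treated libraries of HCT 116p53-/- cells. It was at 760.2, 692 and 626 CPM in the libraries labelled RPL3 KO with vehicle and 693, 711 and 810.4 CPM with Act D. Every RPL3 KO-labelled library was above every HCT 116p53-/- library. The difference with vehicle was 1.89-fold (log2 0.92 ± 0.088, edgeR adjusted p = 3.73e-08) and with Act D 1.61-fold (log2 0.69 ± 0.088, edgeR adjusted p = 1.59e-06). PSMD13, a lid subunit on chromosome 11, was at 141, 138 and 144 CPM in HCT 116p53-/- cells with vehicle and at 249.6, 253 and 191 CPM in the libraries labelled RPL3 KO. With Act D the values were 149, 148 and 156 CPM against 225, 221 and 240.4 CPM. The groups did not overlap in either treatment, and replicate 3 with vehicle was the lowest of the RPL3 KO-labelled libraries. The log2 difference was 0.71 ± 0.094, edgeR adjusted p = 2.39e-06 with vehicle and 0.60 ± 0.094, edgeR adjusted p = 1.96e-05 with Act D.

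PSMC3, an ATPase gene on the same chromosome, was at 148, 156 and 127 CPM in vehicle-treated HCT 116p53-/- cells against 234, 235 and 197 CPM in the libraries labelled RPL3 KO, and at 174, 163 and 158 against 209, 202 and 235 CPM with Act D. These groups were also separate, with a log2 difference of 0.63 ± 0.097, edgeR adjusted p = 1.41e-05 with vehicle and 0.38 ± 0.097, edgeR adjusted p = 0.00194 with Act D. PSMD10, which encodes gankyrin, a chaperone of the ATPase ring, was at 34.5, 31.3 and 29.9 against 36.4, 48.2 and 46.3 CPM with vehicle and at 32.2, 33.0 and 34.8 against 52.7, 53.8 and 51.6 CPM with Act D, again without overlap (log2 0.46 ± 0.10, edgeR adjusted p = 0.000725 and 0.66 ± 0.10, edgeR adjusted p = 2.07e-05). PSMD7, the partner of the deubiquitinase PSMD14 in the lid, overlapped with vehicle, at 103, 98.3 and 84.4 against 95.3, 127 and 122 CPM, and was separate with Act D, at 71.1, 67.2 and 69.6 against 105, 108 and 121 CPM. Its log2 difference was 0.27 ± 0.10, edgeR adjusted p = 0.0288 with vehicle and 0.68 ± 0.11, edgeR adjusted p = 1.80e-05 with Act D. PSME1 and PSME2, the interferon-inducible subunits of an activator that binds the core particle, were both higher in the libraries labelled RPL3 KO. PSME1 was at 57.2, 54.2 and 49.2 against 64.9, 81.5 and 67.9 CPM with vehicle and at 62.0, 52.8 and 56.1 against 82.5, 81.5 and 80.8 CPM with Act D. PSME2 was at 44.6, 47.0 and 44.4 against 63.6, 75.8 and 68.0 CPM with vehicle and at 57.9, 53.6 and 53.4 against 75.3, 77.2 and 85.7 CPM with Act D. No group of either gene overlapped the other line, and the log2 differences with vehicle were 0.42 ± 0.097, edgeR adjusted p = 0.000867 for PSME1 and 0.61 ± 0.088, edgeR adjusted p = 6.20e-06 for PSME2.

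Among the genes lower in the libraries labelled RPL3 KO, PSMD5 (chr9:120815496-120842951, hg38, minus strand) differed most. It was at 62.4, 53.7 and 67.0 CPM with vehicle and 57.0, 57.2 and 62.1 CPM with Act D in HCT 116p53-/- cells. The libraries labelled RPL3 KO held 30.4, 28.8 and 27.7 CPM and 22.7, 25.5 and 25.04 CPM. All 6 of these were below all 6 of the parental line, by 2.11-fold with vehicle (log2 -1.08 ± 0.096, edgeR adjusted p = 1.42e-08) and 2.41-fold with Act D (log2 -1.27 ± 0.10, edgeR adjusted p = 3.02e-09). PSMC5 (chr17:63827152-63832026, hg38, plus strand) was at 96.4, 103 and 112 against 68.4, 53.7 and 49.2 CPM with vehicle and at 127, 127 and 143 against 62.9, 55.8 and 81.2 CPM with Act D. The groups were separate in both treatments, with a log2 difference of -0.87 ± 0.13, edgeR adjusted p = 9.55e-06 and -0.99 ± 0.13, edgeR adjusted p = 2.42e-06. PSMC5 overlaps FTSJ3 on the opposite strand, at a mean of 98.7 CPM, and strand use in the counting is not given in the sources used here.

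PSMD12 (chr17:67337916-67366605, hg38, minus strand), a lid subunit, was lower by 1.82-fold with vehicle and 2.38-fold with Act D. Its libraries held 219, 186 and 224 against 115, 117 and 112 CPM with vehicle and 291, 285 and 311 against 106, 136 and 131 CPM with Act D, so that the RPL3 KO-labelled libraries were all below those of HCT 116p53-/- cells. The log2 difference was -0.87 ± 0.097, edgeR adjusted p = 2.98e-07 with vehicle and -1.25 ± 0.098, edgeR adjusted p = 2.85e-09 with Act D. PSMF1, which encodes an inhibitor of the isolated core particle, was lower by -0.59 and -0.52 on the log2 scale (edgeR adjusted p = 5.65e-06 and 3.17e-05), and the ATPase PSMC4 by -0.47 and -0.73 (edgeR adjusted p = 6.55e-05 and 3.93e-07).

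**Figure D3:**
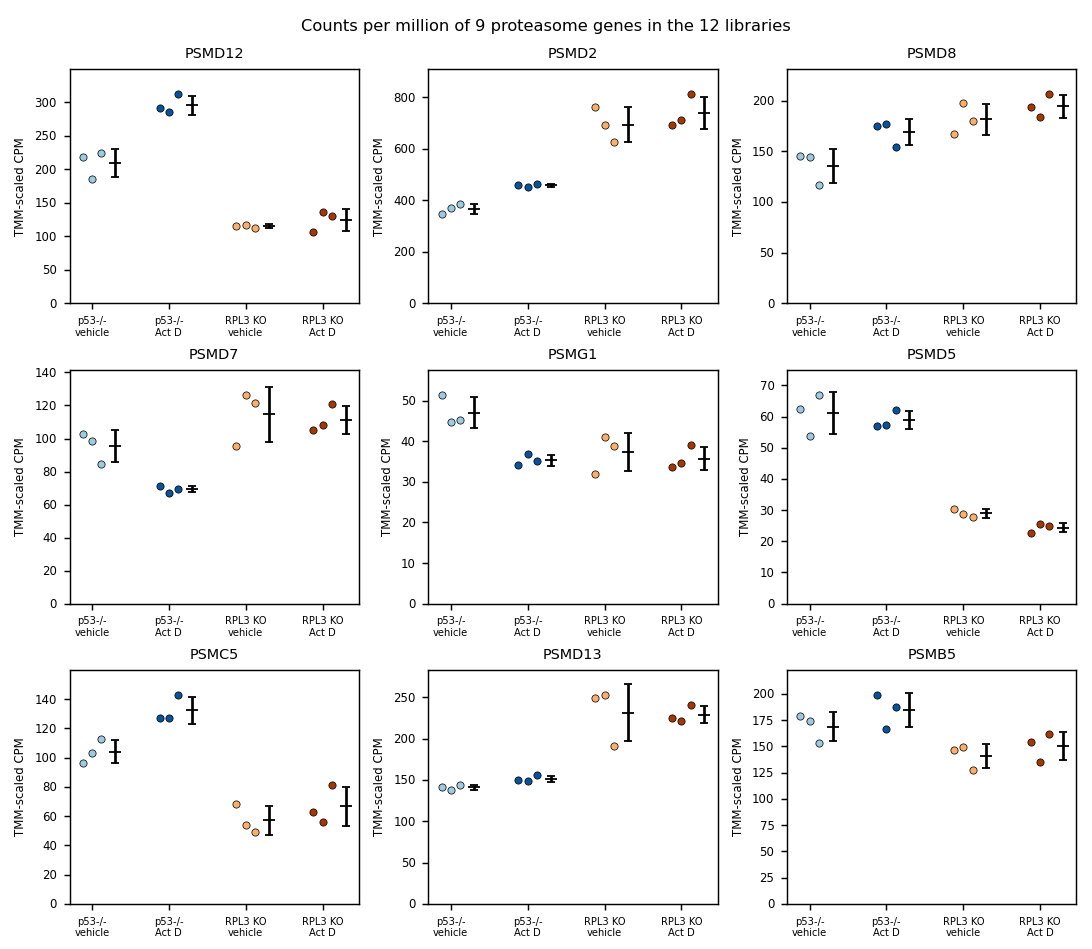
TMM-scaled CPM (y axes, linear from 0) of 9 proteasome genes in the 12 libraries, by group (x axes). Points are libraries, and the bar beside them is the mean with its SD. PSMD12 and PSMC5 are lower and PSMD2 and PSMD13 higher in the libraries labelled RPL3 KO, and PSMD7 and PSMG1 are lower with Act D in HCT 116p53-/- cells.

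The genes of the proteolytic sites differed less. PSMB5, which carries the chymotrypsin-like activity that proteasome inhibitors target first, was at 179, 174 and 153 CPM in vehicle-treated HCT 116p53-/- cells against 146, 149 and 128 CPM in the libraries labelled RPL3 KO, and at 199, 167 and 188 against 154, 135 and 162 CPM with Act D. It was lower in both treatments, without overlap (log2 -0.25 ± 0.096, edgeR adjusted p = 0.0248 and -0.29 ± 0.097, edgeR adjusted p = 0.0116). PSMB6, which carries the caspase-like activity, was at 114, 118 and 97.7 against 95.4, 109.6 and 98.2 CPM with vehicle, where the groups overlapped, and at 137, 132 and 127 against 104, 104 and 122 CPM with Act D, where they did not (log2 -0.12 ± 0.093, edgeR adjusted p = 0.259 and -0.27 ± 0.093, edgeR adjusted p = 0.0148). PSMB7, which carries the trypsin-like activity, was at 134, 127 and 104 against 133, 174 and 148 CPM with vehicle and at 138, 132 and 122 against 137, 130.1 and 143 CPM with Act D. The groups of PSMB7 overlapped in both treatments, and the call with vehicle (log2 0.32 ± 0.11, edgeR adjusted p = 0.0124) was not made with Act D (log2 0.07 ± 0.11, edgeR adjusted p = 0.593). The ubiquitin receptor PSMD4 was at 140.3, 139 and 118 against 121, 118 and 111 CPM with vehicle, where it was not called (log2 -0.19 ± 0.094, edgeR adjusted p = 0.0834), and at 161, 165 and 145 against 106, 114 and 131 CPM with Act D, where it was lower without overlap (log2 -0.43 ± 0.095, edgeR adjusted p = 0.000623). POMP, the chaperone that closes the assembly of the core particle, was at 102, 84.8 and 84.9, then 96.4, 90.1 and 103 CPM in HCT 116p53-/- cells and 82.1, 106 and 92.0, then 87.9, 101 and 96.0 CPM in the libraries labelled RPL3 KO, each with vehicle and then with Act D. Its groups overlapped, and its log2 difference between lines was 0.05 ± 0.10, edgeR adjusted p = 0.687 with vehicle.

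The other genes are given here by their log2 differences between lines with vehicle and then with Act D. Among the alpha ring genes these were 0.12 and 0.16 for PSMA1, 0.10 and 0.00 for PSMA2, -0.17 and -0.25 for PSMA5 and 0.23 and 0.07 for PSMA6, of which PSMA5 passed with Act D. The alpha ring genes PSMA4 (0.33 and 0.27) and PSMA3 (0.21 and 0.00) were higher, PSMA4 in both and PSMA3 with vehicle, and PSMA7 (-0.04 and -0.41) was lower with Act D, a call kept under all 13 alternatives. The structural beta subunits PSMB2 (-0.28 and -0.28) and PSMB3 (-0.27 and -0.55) were lower in both, PSMB1 (0.50 and 0.39) was higher in both, and PSMB4 (0.31 and 0.20) was higher with vehicle. The ATPases PSMC1 (0.22 and 0.06) and PSMC6 (0.51 and 0.16) were likewise higher with vehicle, and PSMC2 (0.18 and -0.09) passed in neither. The deubiquitinase PSMD14 (-0.06 and -0.22), the large base subunit PSMD1 (-0.16 and -0.41) and the lid subunit PSMD3 (-0.18 and -0.39) were lower with Act D, and the lid subunit PSMD11 (-0.54 and -0.58) in both.

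The activator PSME4 (-0.03 and -0.24) was lower with Act D. Among the assembly chaperones PSMG3 (0.37 and 0.19) was higher with vehicle and PSMG4 (0.27 and 0.44) in both, while PSMG2 (0.03 and -0.16) and PSMD9 (0.11 and 0.05), a chaperone of the ATPases, passed in neither. Some of these calls were lost under many of the 13 alternatives. PSMG4 with vehicle lost its call under 9, among them DESeq2, upper-quartile scaling and the omission of replicate 1 or 3 of the HCT 116p53-/- libraries or replicate 2 or 3 of the RPL3 KO-labelled ones. PSMC1 with vehicle lost it under 8, among them without replicate 3 of the HCT 116p53-/- libraries or replicate 1 or 2 of the RPL3 KO-labelled ones. PSMA4 with Act D lost it under 7, among them without any of the HCT 116p53-/- libraries in turn or replicate 2 or 3 of the RPL3 KO-labelled ones. PSMD7 with vehicle lost it under 5, among them without replicate 3 of the HCT 116p53-/- libraries or replicate 2 or 3 of the RPL3 KO-labelled ones. The other line calls of members were lost under at most 4. Of the 44 genes 18 overlap another tested gene, such as PSMC2 with PMPCB and DNAJC2, PSMG2 with SPIRE1 and PSMG4 with TUBB2B. Such overlap can make counts less certain, and its effect here was not tested. Where deposited, the posterior SD was at most 2.07% of a member's count.

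Members were also read by chromosome. The 7 members on chromosome 17 (PSMB3, PSMB6, PSMC5, PSMD3, PSMD11, PSMD12 and PSME3) were all below 0 in both line comparisons. Of them, 5 were called with vehicle and 7 with Act D, where 71.3% and 70.4% of all genes tested were called in either direction. Their median was -0.28 with vehicle and -0.55 with Act D. The 965 other tested genes of that chromosome had a median of -0.46 and -0.47, and 32.8% and 29.5% of them were above 0. The 3 members on chromosome 11 (PSMA1, PSMC3 and PSMD13) were all above 0, with a median of 0.63 with vehicle, beside 0.34 over 867 other genes. Of the 7 members on chromosome 14, 6 were above 0 with vehicle, and the median was 0.23, beside 0.17 over 509 other genes, and with Act D 0.07 beside 0.21. With vehicle the medians of members and of other genes lay on the same side of 0 on chromosomes 3, 7, 9, 12, 13, 15, 19 and 20. Examples were 0.40 beside 0.23 on chromosome 3 and -0.38 beside -0.29 on chromosome 9. They lay on opposite sides on chromosomes 1, 2, 6, 16, 18, 21 and X. The 4 members on chromosome 1 (PSMA5, PSMB2, PSMB4 and PSMD4) had a median of -0.18 beside 0.07 over 1596 other genes, and the 3 on chromosome 2 (PSMD1, PSMD14 and PSME4) were all below 0 beside a median of 0.10. The 2 on chromosome 6 (PSMB1 and PSMG4) had a median of 0.39 beside -0.05, and PSMD7 on chromosome 16 was at 0.27 beside -0.40.

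The second question was how the proteasome genes changed with Act D in each line. In HCT 116p53-/- cells 8 of the 44 genes rose and 2 fell, where 7.59% of the genes tested rose, 11.1% fell and 18.7% changed in either direction. Of the 7924 genes with a mean CPM of at least that of the lowest member, 26.2% changed in either direction, beside 22.7% of the members. The genes that rose were 2 of the 7 alpha ring genes (PSMA3 and PSMA7), 1 of the 6 ATPases (PSMC4), 4 of the 11 other regulatory particle genes (PSMD2, PSMD6, PSMD8 and PSMD12) and 1 activator (PSME2), while the lid gene PSMD7 and the assembly chaperone PSMG1 fell. The changes were under 1.5-fold: the median log2 change was 0.13 over the members and 0.02 over all genes. Estimates were above 0 for 36 of the 44 genes, among them all 14 core particle genes and all 6 ATPases, against 52.2% of all genes, but 34 of the 44 did not pass the test. The distance between the median of the members and that of all genes was 0.11, and it lay between 0.07 and 0.17 under the other scalings, filters and libraries left out. The assembly chaperones had no such excess, with 4 of 8 above 0 and a median of 0.00. The activator and inhibitor genes had 3 of 5 above 0 and a median of 0.0075, below the 0.018 of all genes.

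How many genes passed depended on single libraries. Without replicate 1 or replicate 2 of the vehicle-treated libraries 5 genes rose in either case, and without replicate 3 of them, or replicate 1 or 2 of the Act D-treated libraries, 2 genes rose in each case. The number of all genes that rose also fell in these fits, from 1191 to 877, 835, 827, 664 and 695 in the same order. The fall of 2 genes became 1 without replicate 1 of either group. With the upper-quartile scaling 13 genes rose, and all tested genes then split into 1480 higher and 1519 lower in place of 1191 and 1748. With library size alone 1 gene rose, and the split was 551 to 2309. PSMD12 and PSMD7 were called under all 13 alternatives.

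**Figure D4:**
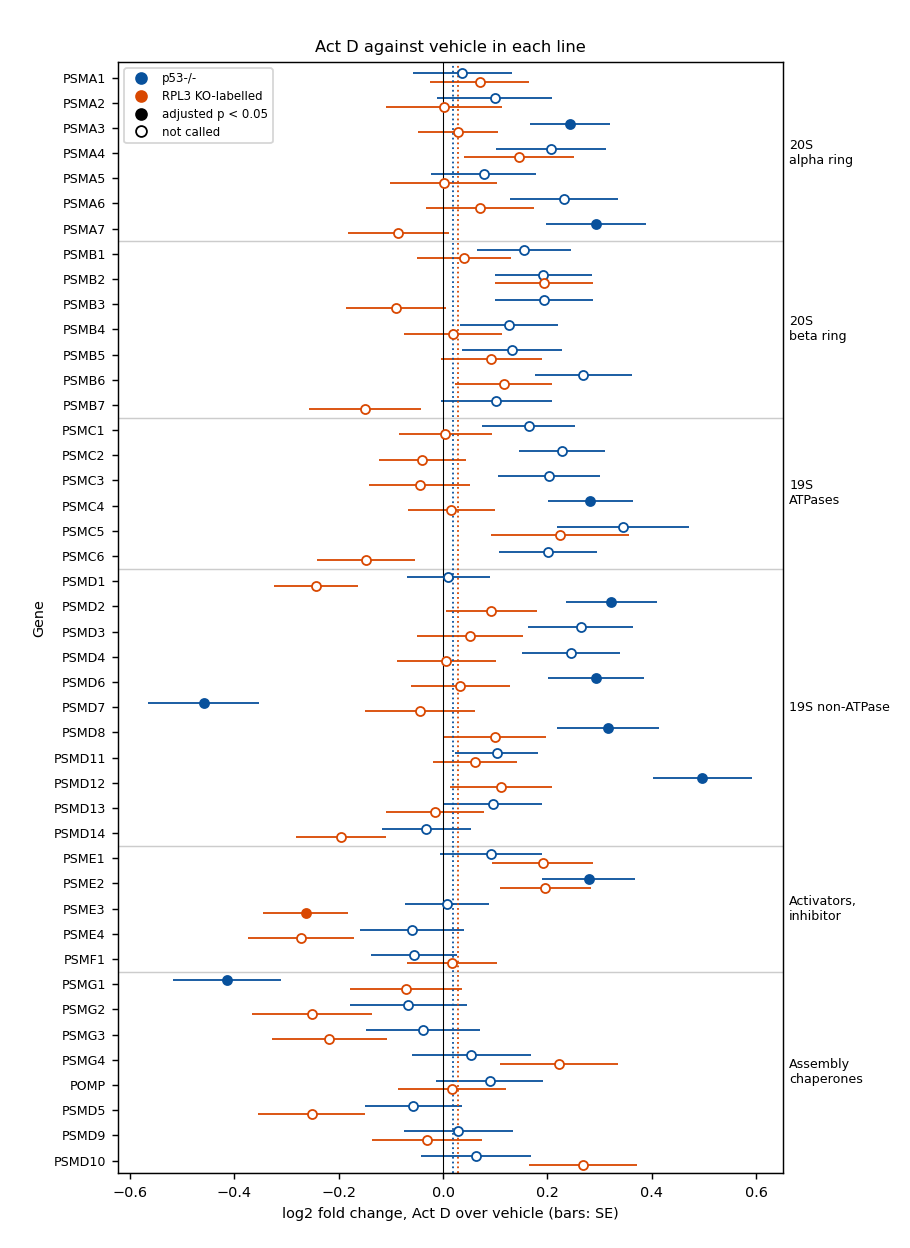
Log2 fold change with Act D over vehicle (x axis) of each proteasome gene in HCT 116p53-/- cells (blue) and in the libraries labelled RPL3 KO (orange), by role (y axis). Bars are SE, filled points passed an adjusted p under 0.05, and dotted lines mark the median of all genes. Blue points lie to the right of the orange ones for most genes of the core particle and the ATPase ring, PSMD7 and PSMG1 lie to the left in blue, and 1 orange point, PSME3, is filled.

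PSMD12 rose most, from 219, 186 and 224 CPM with vehicle to 291, 285 and 311 CPM with Act D. The lowest treated library was above the highest untreated one, and the change was 1.41-fold (log2 0.50 ± 0.096, edgeR adjusted p = 0.00134). PSMD2 rose from 345, 371 and 384 to 459, 452 and 464 CPM without overlap (log2 0.32 ± 0.087, edgeR adjusted p = 0.0153), a call that was lost without replicate 1 of either group and with library size alone. PSMD8, a lid subunit, rose from 145, 145 and 117 to 175, 177 and 154 CPM (log2 0.32 ± 0.098, edgeR adjusted p = 0.0311). The groups were separate, with replicate 3 the lowest in both, and the call was lost with library size alone and without that vehicle-treated library or replicate 1 or 2 of the treated ones. PSMD7 fell from 103, 98.3 and 84.4 to 71.1, 67.2 and 69.6 CPM without overlap, by 1.37-fold (log2 -0.46 ± 0.11, edgeR adjusted p = 0.00545). PSMG1, which pairs alpha subunits during assembly, fell from 51.5, 44.7 and 45.2 to 34.1, 36.9 and 35.1 CPM, again without overlap (log2 -0.41 ± 0.10, edgeR adjusted p = 0.00946), and its call was lost without replicate 1 of either group. The other genes that rose had log2 changes of 0.29 (PSMD6), 0.29 (PSMA7), 0.28 (PSMC4), 0.28 (PSME2) and 0.24 (PSMA3), with edgeR adjusted p between 0.0222 and 0.042, and each lost its call under 6 to 9 of the 13 alternatives. The libraries of PSMB5 overlapped between the treatments, as did those of PSMB7, while those of PSMB6 did not and its adjusted p was 0.0504 (edgeR, log2 0.27).

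The promoters of the genes that changed most are shown because NFE2L1 and NFE2L2, with small MAF partners, are known to bind antioxidant response elements in proteasome gene promoters. RefSeq promoter windows (GRCh38.p14, 250 bases before the start) were matched for 38 of the 44 members, all but PSMA7, PSMB1, PSMB6, PSMB7, PSMD4 and PSMG3. The stretches below, written on the strand of the gene, hold the part of the window outside annotated exons, and capitals mark the motifs TGACNNNGC (the core of the antioxidant response element) and CCAAT on either strand. They are PSMD12 at chr17:67366606-67366827 (minus strand), PSMD2 at chr3:184298991-184299197 (plus), PSMD8 at chr19:38374321-38374562 (plus), PSMD7 at chr16:74296763-74296813 (plus) and PSMG1 at chr21:39183489-39183701 (minus).
PSMD12: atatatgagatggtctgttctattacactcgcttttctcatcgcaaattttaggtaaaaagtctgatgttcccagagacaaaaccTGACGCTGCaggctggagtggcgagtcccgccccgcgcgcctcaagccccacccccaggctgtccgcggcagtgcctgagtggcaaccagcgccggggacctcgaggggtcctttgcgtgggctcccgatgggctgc
PSMD2: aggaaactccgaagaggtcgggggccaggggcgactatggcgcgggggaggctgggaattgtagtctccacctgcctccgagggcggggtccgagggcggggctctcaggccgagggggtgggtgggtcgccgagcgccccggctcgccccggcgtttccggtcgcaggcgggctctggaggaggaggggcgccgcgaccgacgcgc
PSMD8: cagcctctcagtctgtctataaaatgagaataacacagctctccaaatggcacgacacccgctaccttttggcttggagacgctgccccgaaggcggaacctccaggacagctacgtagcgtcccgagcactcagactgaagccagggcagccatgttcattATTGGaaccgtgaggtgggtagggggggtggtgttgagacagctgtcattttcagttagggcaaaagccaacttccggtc
PSMD7: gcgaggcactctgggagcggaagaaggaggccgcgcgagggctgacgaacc
PSMG1: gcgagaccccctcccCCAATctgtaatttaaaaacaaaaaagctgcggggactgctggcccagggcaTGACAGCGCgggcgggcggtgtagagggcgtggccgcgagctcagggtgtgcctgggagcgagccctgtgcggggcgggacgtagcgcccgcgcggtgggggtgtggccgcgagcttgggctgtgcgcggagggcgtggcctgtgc
PSMD12 and PSMG1 hold TGACNNNGC on the strand of the gene, PSMD8 holds CCAAT on the opposite strand, PSMG1 also holds CCAAT, and neither motif is in the stretches of PSMD2 and PSMD7. The stretch of PSMD7 is 51 bases of its window of 250, and the full window holds 1 CCAAT. PSMD12 rose with Act D and PSMG1 fell.

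Over the full windows of 250 bases, TGACNNNGC was in the promoters of 10 of 38 members (26.3%), against 12.2% of 11319 promoters of tested genes and 11.03% of all 27305 promoters. These members were PSMB3, PSMD3, PSMD5, PSMD9, PSMD12, PSME1, PSME2, PSME4, PSMG1 and PSMG2. CCAAT was in 16 of 38 (42.1%), against 35.1% of promoters of tested genes and 33.0% of all promoters. The E-box CACGTG was in 3 of 38 (7.89%), below the 8.69% of promoters of tested genes and above the 6.49% of all promoters. The motifs were chosen with the results known, and a match is a match of letters and not a site in use. The median log2 change with Act D in HCT 116p53-/- cells was 0.06 over the 10 members with TGACNNNGC and 0.13 over the 28 without it. The ranges overlapped, from -0.41 to 0.50 with the motif and from -0.46 to 0.34 without it. Called higher were 2 of the 10 and 5 of the 28, beside 7.59% of all genes tested. The difference between these medians was not tested.

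In the libraries labelled RPL3 KO, 0 of the 44 genes rose with Act D and 1 fell, where 3.51% of the genes tested rose, 8.4% fell and 11.9% changed in either direction. Of the 7924 genes with a mean CPM of at least that of the lowest member, 18.5% changed in either direction. The member that fell was PSME3, which encodes a nuclear activator of the core particle. It fell from 127, 122 and 117 to 94.4, 104 and 107 CPM without overlap (log2 -0.26 ± 0.081, edgeR adjusted p = 0.0433), and in HCT 116p53-/- cells it was at 147, 144 and 155 CPM with vehicle and 145, 142 and 161 CPM with Act D. The call was lost under 7 of the 13 alternatives, among them without replicate 1 or 2 of either group, and the count of genes that fell ranged from 0 to 2 with single libraries left out. The median log2 change was 0.02 over the members and 0.03 over all genes, and 27 of the 44 estimates were above 0. DESeq2 called 0 members higher and 2 lower, PSMD1 beside PSME3, against 609 of all genes higher and 1408 lower. PSMD12 was at 115, 117 and 112 CPM with vehicle and 106, 136 and 131 CPM with Act D (log2 0.11 ± 0.098, edgeR adjusted p = 0.523), and PSMD7 at 95.3, 127 and 122 and 105, 108 and 121 CPM (log2 -0.04 ± 0.11, edgeR adjusted p = 0.845), with overlapping groups for both.

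Whether the Act D responses differed between the lines was tested with the interaction term over the 12 libraries. No member passed with edgeR (0 of 44, against 6.53% of all genes, 3.3% higher and 3.23% lower). DESeq2 called 0 members, against 622 of all genes higher and 667 lower. The estimates leaned one way: 36 of the 44 were below 0, meaning a less positive change in the libraries labelled RPL3 KO, with a median of -0.16, against -0.01 over all genes, of which 49.2% were above 0. All 6 ATPases were below 0, with a median of -0.26, as were 10 of the 11 other regulatory particle genes. The exception among those was PSMD7, with the largest positive estimate of log2 0.41 ± 0.15, edgeR adjusted p = 0.11, and the largest negative one was that of PSMD12, log2 -0.39 ± 0.14, edgeR adjusted p = 0.103. Neither passed, and the SE of a member's interaction was between 0.11 and 0.18. PSMA7 passed without replicate 3 of the Act D-treated RPL3 KO-labelled libraries and PSMC6 without replicate 1 of the vehicle-treated HCT 116p53-/- libraries, and no other member passed in any of the 12 fits. The line differences and the Act D responses share libraries, and their values are therefore given side by side.

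Other genes of the pathway were read from a list of 41, of which 39 were tested. In the libraries labelled RPL3 KO 16 of them were higher and 12 lower with vehicle (all genes: 35.1% and 36.2%), and 13 were higher and 19 lower with Act D (all genes: 35.1% and 35.3%). ZFAND2A, a stress-inducible adaptor of the proteasome, was at 12.3, 13.02 and 10.8 against 109, 166 and 128 CPM with vehicle, a separation of 11.2-fold (log2 3.48 ± 0.15, edgeR adjusted p = 6.10e-13). UCHL5, a deubiquitinase bound to the regulatory particle, was at 32.1, 31.1 and 33.7 against 109.6, 108 and 107 CPM (log2 1.74 ± 0.083, edgeR adjusted p = 2.48e-12), and UBXN1, a cofactor of the unfoldase p97, at 38.2, 41.5 and 32.1 against 149, 151 and 136 CPM (log2 1.96 ± 0.11, edgeR adjusted p = 3.50e-11). Differences of this size were absent from the 44 listed proteasome genes, whose largest was that of the assembly chaperone gene PSMD5 at log2 -1.27 with Act D.

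The regulators of proteasome genes did not move as 1 group. NFE2L1 was at 218, 218 and 200.3 CPM in vehicle-treated and 276, 258 and 258 CPM in Act D-treated HCT 116p53-/- cells, and at 173, 174 and 175 and 201, 196 and 217 CPM in the libraries labelled RPL3 KO. It rose with Act D in both lines without overlap (log2 0.32 ± 0.074, edgeR adjusted p = 0.00594 and 0.23 ± 0.075, edgeR adjusted p = 0.0495). The call in HCT 116p53-/- cells was lost with library size alone, and that in the libraries labelled RPL3 KO under 10 of 13 alternatives, among them without any of its 6 libraries in turn. The change did not differ by the interaction test (log2 -0.08 ± 0.10, edgeR adjusted p = 0.712), and it was lower in the libraries labelled RPL3 KO in both treatments (log2 -0.29 and -0.37). Its protease DDI2 was at 98.5, 92.7 and 102 against 75.3, 52.6 and 57.9 CPM with vehicle (log2 -0.66 ± 0.12, edgeR adjusted p = 8.05e-05) and did not change with Act D past the test in either line (log2 0.11 and -0.08). NFE2L2, the related antioxidant regulator, was at 92.9, 81.1 and 101 against 73.4, 62.7 and 63.5 CPM with vehicle (log2 -0.47 ± 0.10, edgeR adjusted p = 0.000641), and its response to Act D was not called in either line. These groups were separate for DDI2 and separate for NFE2L2. The small MAF gene MAFF was at 16.1, 11.8 and 10.4 against 60.9, 70.3 and 68.7 CPM with vehicle (log2 2.39 ± 0.13, edgeR adjusted p = 1.20e-11). The deglycosylase NGLY1 went from 20.2, 21.8 and 20.2 to 10.7, 15.2 and 13.03 CPM with Act D in HCT 116p53-/- cells, a fall of log2 -0.68 ± 0.13, edgeR adjusted p = 0.00159, and from 22.6, 29.3 and 26.1 to 31.2, 35.1 and 29.8 CPM in the libraries labelled RPL3 KO, where it was not called (log2 0.30 ± 0.13, edgeR adjusted p = 0.149). NFE2L3 fell from 40.3, 37.3 and 36.8 to 18.2, 23.1 and 20.4 CPM in HCT 116p53-/- cells (log2 -0.89 ± 0.10, edgeR adjusted p = 1.26e-05) and was at 30.4, 34.4 and 35.0 and 33.2, 34.6 and 37.6 CPM in the other line.

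With Act D 8 of the 39 genes rose and 6 fell in HCT 116p53-/- cells (all genes: 7.59% and 11.1%), and 1 rose and 7 fell in the libraries labelled RPL3 KO (all genes: 3.51% and 8.4%). MAFF rose from 16.1, 11.8 and 10.4 to 21.7, 24.8 and 21.6 CPM in HCT 116p53-/- cells without overlap (log2 0.84 ± 0.13, edgeR adjusted p = 0.000214) and was at 60.9, 70.3 and 68.7 and 77.5, 73.7 and 75.3 CPM in the libraries labelled RPL3 KO, where it was not called. In the libraries labelled RPL3 KO the largest falls were those of UBE3C, a ubiquitin ligase bound to the proteasome, from 201, 194 and 186 to 97.9, 110.1 and 111 CPM (log2 -0.87 ± 0.078, edgeR adjusted p = 2.30e-06), of NPLOC4, a p97 adaptor, from 117, 96.0 and 93.4 to 57.6, 59.0 and 67.1 CPM (log2 -0.74 ± 0.095, edgeR adjusted p = 7.08e-05), and of MAFK, from 74.2, 75.9 and 66.2 to 49.8, 39.6 and 45.9 CPM (log2 -0.67 ± 0.11, edgeR adjusted p = 0.000371).

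**Figure D5:**
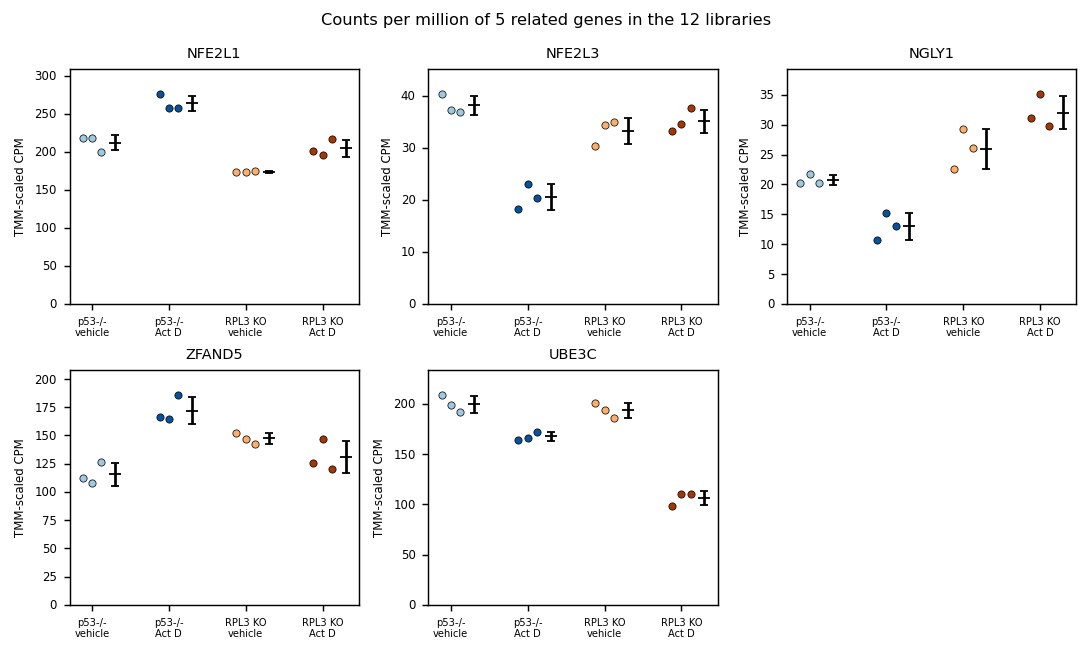
TMM-scaled CPM (y axes, linear from 0) of 5 related genes in the 12 libraries, by group (x axes). Points are libraries, and the bar beside them is the mean with its SD. NFE2L1 is higher with Act D in both lines, a call that was lost under 10 of 13 alternatives in the libraries labelled RPL3 KO. NFE2L3 and NGLY1 are lower and ZFAND5 is higher with Act D in HCT 116p53-/- cells, and UBE3C is lowest in the Act D-treated libraries labelled RPL3 KO.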

How the data were processed

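RNA was sequenced from 12 libraries, 3 in each of 4 groups. The authors quantified expected counts and TPM with RSEM (version 1.2.25, genome build hg38, per the submitters' processing notes), and deposited them per gene for 11 libraries and per transcript for 1 (HCT 116p53-/- with vehicle, replicate 2), whose 226788 transcripts were summed per gene here. TPM is normalised by the authors for effective length and library. The deposited posterior SD of the counts was used only as a measure of uncertainty, at most 2.07% of a member's count. Strand use in the counting is not given in the sources used here. Totals were 10087925 to 21138886 expected counts per library, and precision is limited by 3 libraries per group.

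Expected counts were rounded, filtered with filterByExpr (15692 genes kept), scaled by TMM (factors 0.847 to 1.148) and fitted over all 12 libraries with edgeR 4.0.16 (quasi-likelihood test, no covariates, 8 residual degrees of freedom, limma 3.58.1, R 4.3.3). The 5 comparisons were the line difference with vehicle and with Act D, the Act D response in each line, and their interaction, each called at a Benjamini-Hochberg adjusted p under 0.05 over all genes tested. Code was tested on simulated data. Alternatives were DESeq2 1.42.0, library size or upper-quartile scaling, other filters, a replicate block, fits of the 2 groups compared, and each library left out. Summaries used Python 3.11 and pandas 2.3.3. Promoters came from RefSeq (GRCh38.p14).

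The members, gene lists, motifs and tests were chosen with earlier results of these data known. Every member is named. Values in every library are given for the catalytic subunits, PSMD4, POMP, PSME1 and PSME2 and, per comparison, the 3 called members with the largest change in each direction, and, of the related genes, for the 3 with the largest called change at a mean of at least 5 CPM in 1 group and for NFE2L1, NFE2L2, NFE2L3, DDI2, NGLY1, PSMB8, PSMB9 and PSMB10, in the groups compared. RPL3 and the cell type markers are given as ranges. Some genes that the rule would name are not reported here.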

Additional observations from a re-analysis of the deposited data

Results flagged for a closer look

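For the 8 related genes given here the response to Act D differed between the lines by edgeR's interaction test (Benjamini-Hochberg adjusted p under 0.05). Of the 39 related genes tested 9 were called, 2 higher and 7 lower. Over all genes tested the share was 6.53%, with 3.3% higher and 3.23% lower. Differences are log2, the response in the libraries labelled RPL3 KO minus that in HCT 116p53-/- cells. The difference was -0.42 for VCP (edgeR adjusted p = 0.034), which encodes the unfoldase p97. It was -0.74 for ZFAND5 (edgeR adjusted p = 0.00249) and -0.78 for ZFAND2A (edgeR adjusted p = 0.0271), both proteasome-binding proteins, and -0.62 for the ligase UBE3C (edgeR adjusted p = 0.00264). The small MAF genes MAFG and MAFF differed by -0.54 and -0.66 (edgeR adjusted p = 0.0191 and 0.0307). The difference was positive for NFE2L3 at 0.97 (edgeR adjusted p = 0.000948) and for NGLY1 at 0.97 (edgeR adjusted p = 0.00419). No proteasome gene among the 44 differed in this way. The call was lost under 10 of 18 alternatives for VCP, 9 for MAFF and 2 for ZFAND2A, and under none for ZFAND5, UBE3C, MAFG, NFE2L3 and NGLY1. For ZFAND2A these were without replicate 3 of the vehicle-treated or replicate 1 of the Act D-treated HCT 116p53-/- libraries. For both VCP and MAFF they included library size alone, the replicate block and the omission of replicate 2 or 3 of the vehicle-treated or replicate 1 or 2 of the Act D-treated HCT 116p53-/- libraries, or of replicate 1 of the Act D-treated RPL3 KO-labelled libraries. The others were replicate 3 of the Act D-treated HCT 116p53-/- libraries, replicate 1 of the vehicle-treated and replicate 2 of the Act D-treated RPL3 KO-labelled libraries for VCP, and replicates 2 and 3 of the vehicle-treated RPL3 KO-labelled libraries for MAFF.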

How the results depend on the processing

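Under library size alone, which moved the median of all genes to -0.26 between lines, members called higher and lower with vehicle numbered 6 and 20, and all genes split into 4202 higher and 6974 lower in place of 5501 and 5684. With Act D 6 were higher, and the split was 4244 to 6825 in place of 5503 to 5540. PSMA3 turned to -0.024 with vehicle and -0.24 with Act D, and PSMC1 to -0.022 with vehicle. For the Act D response in HCT 116p53-/- cells, members called higher numbered 1 with library size alone, 13 with upper-quartile scaling, 5 without a filter and 4 with the replicate block. All genes called higher numbered 551, 1480, 1139 and 951 in the same order, in place of 1191. In the libraries labelled RPL3 KO, members called lower numbered 5 with library size alone, 2 with DESeq2, 2 without a filter, and 0 with upper-quartile scaling (1 higher), with the replicate block or with only the 2 groups compared. There all genes split into 227 higher and 1858 lower with library size alone and 944 and 1012 with upper-quartile scaling, in place of 551 and 1318. The split was 609 to 1408 with DESeq2 and 470 to 1691 without a filter. It was 398 to 1104 with the replicate block and 271 to 1117 with only the 2 groups compared. With single libraries left out, members called higher and lower were 11 to 18 and 9 to 13 between lines with vehicle, 9 to 10 and 15 to 19 with Act D, 2 to 6 and 1 to 2 for the Act D response in HCT 116p53-/- cells, 0 and 0 to 2 in the libraries labelled RPL3 KO, and 0 and 0 to 1 for the interaction. Genes called were 10677 to 11251, 10520 to 10780, 1833 to 2312, 1272 to 1709 and 614 to 979 in the same order. The lowest count of members higher with vehicle, 11, came without replicate 3 of the HCT 116p53-/- libraries. Without replicate 1 or 2 of the Act D-treated HCT 116p53-/- libraries 1833 or 1949 genes were called for their Act D response, in place of 2939, and 630 or 669 for the interaction, in place of 1025, which fell to 614 without replicate 1 of the Act D-treated RPL3 KO-labelled libraries. Same-numbered libraries did not deviate together (r from -0.10 to 0.10, own number the best match in 3 of 18 cases), so the block has no basis in pairing. Summed TPM with RN7SL1, RN7SL2 and RN7SK left out, chosen after seeing the data, was 5314, 5621, 4499 and 4351. The cause of these differences was not tested.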

Other observations

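Of the inducible and tissue-specific core subunits, PSMB8, PSMB9, PSMA8 and PSMB11 were low. PSMB10 was near PSMG4, the member with the lowest mean CPM (15.4). PSMB8, an immunoproteasome subunit, had 3 to 4 counts per library in HCT 116p53-/- cells with vehicle and 4 to 11 with Act D, against 19 to 30 and 6 to 25 counts in the libraries labelled RPL3 KO. In CPM these were 0.194, 0.207 and 0.242 with vehicle and 0.249, 0.744 and 0.402 with Act D, against 1.53, 1.501 and 1.28 and 1.38, 2.86 and 0.696. It was higher in the libraries labelled RPL3 KO with vehicle (edgeR adjusted p = 0.000268) and with Act D (edgeR adjusted p = 0.00415), and the groups overlapped with Act D. PSMB9 had 8 to 49 counts per library and PSMB10 was at 12.2 to 20.5 CPM, and neither was called in any of the 5 comparisons. PSMA8 and PSMB11, the testis and thymus subunits, had 0 to 3 counts and were not tested.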
